A study of Mus musculus with 16 samples.

Results

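The expression of 10 genes of T cells and natural killer (NK) cells was followed in the livers of DNA repair-deficient mice on 4 diets. The genes encode parts of the T cell receptor complex (Cd3d, Cd3e, Cd3g, Trac, Trbc2 and the coreceptor Cd8a), products of cytotoxic lymphocytes (Nkg7, Gzma, Ccl5) and a receptor chain for lymphocyte growth factors (Il2rb). They were taken by symbol from the 54752 genes of the deposited count table. Each of the 10 symbols matched 1 gene, and all 10 passed the filter on low counts (0.252 CPM of the unscaled totals in at least 4 libraries) that left 17833 genes for testing. Cd3d and Gzma passed it with 0 control and 0 high-protein libraries at that level, through the low-protein and low-fat livers alone, while the other 8 had 1 to 4 controls at it.

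All animals were male Ercc1Δ/− mice of the strain label F1 Hybrid C57BL6J/FVBN, aged 11 weeks. Ercc1 encodes a subunit of a nuclease of nucleotide excision repair, and these mice carry 1 null allele and 1 truncated allele and age prematurely. Both alleles are in the germline, so lymphocytes and hepatocytes alike carry them. No wild-type animals are among the libraries, so every comparison is between diets within this genotype. AIN93G, a purified standard diet, was the food of every animal up to an age of 8 weeks. From then on, by randomisation, the mice had free access to a high-protein diet (protein at about 194% and carbohydrate at 70% of the standard), a low-protein diet (protein at 70% and carbohydrate at about 112%), a low-fat diet (fat at 70% and carbohydrate at about 112%) or AIN93G as control. There were 4 libraries per diet, each from RNA of a piece of snap-frozen liver.

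T cells recognise antigen through a receptor whose alpha and beta chains bind peptide on MHC molecules, while the CD3 chains carry the signal into the cell. Cytotoxic T cells and NK cells kill target cells by releasing granules with perforin and granzymes, and they depend on interleukin 2 and interleukin 15 for growth and survival. The liver is rich in resident NK and T cells, which lie in the sinusoids beside Kupffer cells, but in whole tissue their RNA is a small share of the hepatocytes' RNA. In such bulk libraries fewer cells of a type and less RNA per cell cannot be told apart.

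The libraries held 35243594 to 46899907 counts, except low-fat replicate 2 with 112789127. The summed level of 12 hepatocyte genes was about 80000 CPM (counts scaled to library size) or more in every library, as the tissue label implies. Control 4 and control 3 lay farthest from the other libraries of their diet, with standard deviations over genes of 1.29 and 1.01 log2 units, against 0.433 to 0.835 in the other 14 libraries. No gene of the whole table passed an adjusted p of 0.05 in edgeR in any comparison (0 of 17833 genes, 0%, in each of the 6 pairs of diets, in the mean of the 3 altered diets against control and in the joint test of the 4 diets). At an unadjusted p below 0.05 these comparisons held 425 to 1756 genes, and DESeq2 called 0 to 81 genes. No statement on the 10 genes is therefore a called difference, and levels and fold changes are given with their errors.

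The 3 CD3 genes lie in 1 cluster on chromosome 9 (GRCm38). Cd3g (44969572 to 44980431, minus strand) and Cd3d (44981786 to 44987339, plus strand) are transcribed away from each other from starts 1355 bases apart, and Cd3e (44998740 to 45009627, minus strand) starts 27841 bases from Cd3d. Upstream sequences are printed for this divergent pair and, for contrast, for 2 genes of the cytotoxic granule, Gzma on chromosome 13 (113093825 to 113100981, minus strand) and Nkg7 on chromosome 7 (43437073 to 43438249, plus strand). Each run is 300 bases of RefSeq sequence (GRCm38.p6) from 250 bases before the RefSeq start to 50 after it, read 5′ to 3′ on the gene's strand. For Cd3g, Cd3d and Gzma that start is the gene start in the count table, and for Nkg7 it lies 65 bases downstream of it, at 43437138. The windows are chr9:44980382-44980681 for Cd3g, chr9:44981536-44981835 for Cd3d, chr13:113100932-113101231 for Gzma and chr7:43436888-43437187 for Nkg7. Capitals mark matches on either strand to the E-box CANNTG, the element of E protein factors of lymphocyte development, and to TGTGGT, the core of RUNX factor elements.
Cd3g: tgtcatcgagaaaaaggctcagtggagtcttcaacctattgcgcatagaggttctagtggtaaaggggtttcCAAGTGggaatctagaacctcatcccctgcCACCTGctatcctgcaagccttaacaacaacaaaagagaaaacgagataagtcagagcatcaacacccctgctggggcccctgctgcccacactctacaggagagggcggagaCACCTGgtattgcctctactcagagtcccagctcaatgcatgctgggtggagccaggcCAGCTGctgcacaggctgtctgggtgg
Cd3d: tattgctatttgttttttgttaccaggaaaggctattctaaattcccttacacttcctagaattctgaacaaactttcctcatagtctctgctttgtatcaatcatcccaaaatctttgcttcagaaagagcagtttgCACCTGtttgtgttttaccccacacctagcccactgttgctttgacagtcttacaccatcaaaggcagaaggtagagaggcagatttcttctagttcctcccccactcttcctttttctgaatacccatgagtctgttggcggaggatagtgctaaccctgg
Gzma: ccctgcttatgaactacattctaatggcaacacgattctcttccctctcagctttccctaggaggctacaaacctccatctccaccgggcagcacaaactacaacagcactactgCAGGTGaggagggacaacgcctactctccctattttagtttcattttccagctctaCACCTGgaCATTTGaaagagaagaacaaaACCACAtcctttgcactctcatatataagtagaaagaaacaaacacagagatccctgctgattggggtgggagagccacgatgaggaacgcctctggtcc
Nkg7: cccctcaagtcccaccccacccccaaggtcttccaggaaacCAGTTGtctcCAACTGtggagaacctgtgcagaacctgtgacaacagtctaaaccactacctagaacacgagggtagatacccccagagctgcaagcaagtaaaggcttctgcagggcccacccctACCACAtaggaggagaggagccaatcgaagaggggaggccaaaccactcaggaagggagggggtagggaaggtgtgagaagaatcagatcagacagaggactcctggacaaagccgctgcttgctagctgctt

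The Cd3g window held 4 E-box matches and the Cd3d window 1, Gzma 3 and Nkg7 2, and 72.3% of all 32851 RefSeq promoters of this length held at least 1. TGTGGT was found once each in the Gzma and Nkg7 windows and in neither CD3 window, and 16.8% of all promoters held it. RefSeq windows were matched for 6 of the 10 genes. The remaining matched windows, of Cd8a and Cd3e, held 3 and 2 E-box matches and no TGTGGT. None was matched for Trac, Trbc2, Il2rb and Ccl5. A match describes the letters only.

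All 10 genes were rare transcripts in these livers. Summed over the 16 libraries they received 137 (Gzma) to 1309 (Il2rb) counts each, and median counts per library were 6 for Gzma to 73 for Il2rb. Per kilobase of exon, Trbc2 had the highest mean level, 1.43 CPM per kb, and lay above Ccl5 in 16 of 16 libraries. Ccl5 (0.51), Nkg7 (0.48), Trac (0.456) and Il2rb (0.401 CPM per kb) followed, and each of the first 3 of these lay above the next in 10 or 11 of 16 libraries, so that their order was not kept from library to library. Il2rb lay above Gzma in 15 of 16. Gzma (0.176), Cd3g (0.136), Cd3d (0.119), Cd3e (0.105) and Cd8a (0.103 CPM per kb) formed a lower group, in which each lay above the next in only 7 to 10 of 16 libraries. The biological coefficient of variation in edgeR was 0.285 for Il2rb to 0.65 for Cd3g, against a median of 0.277 over all genes tested.

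**Figure D1:**
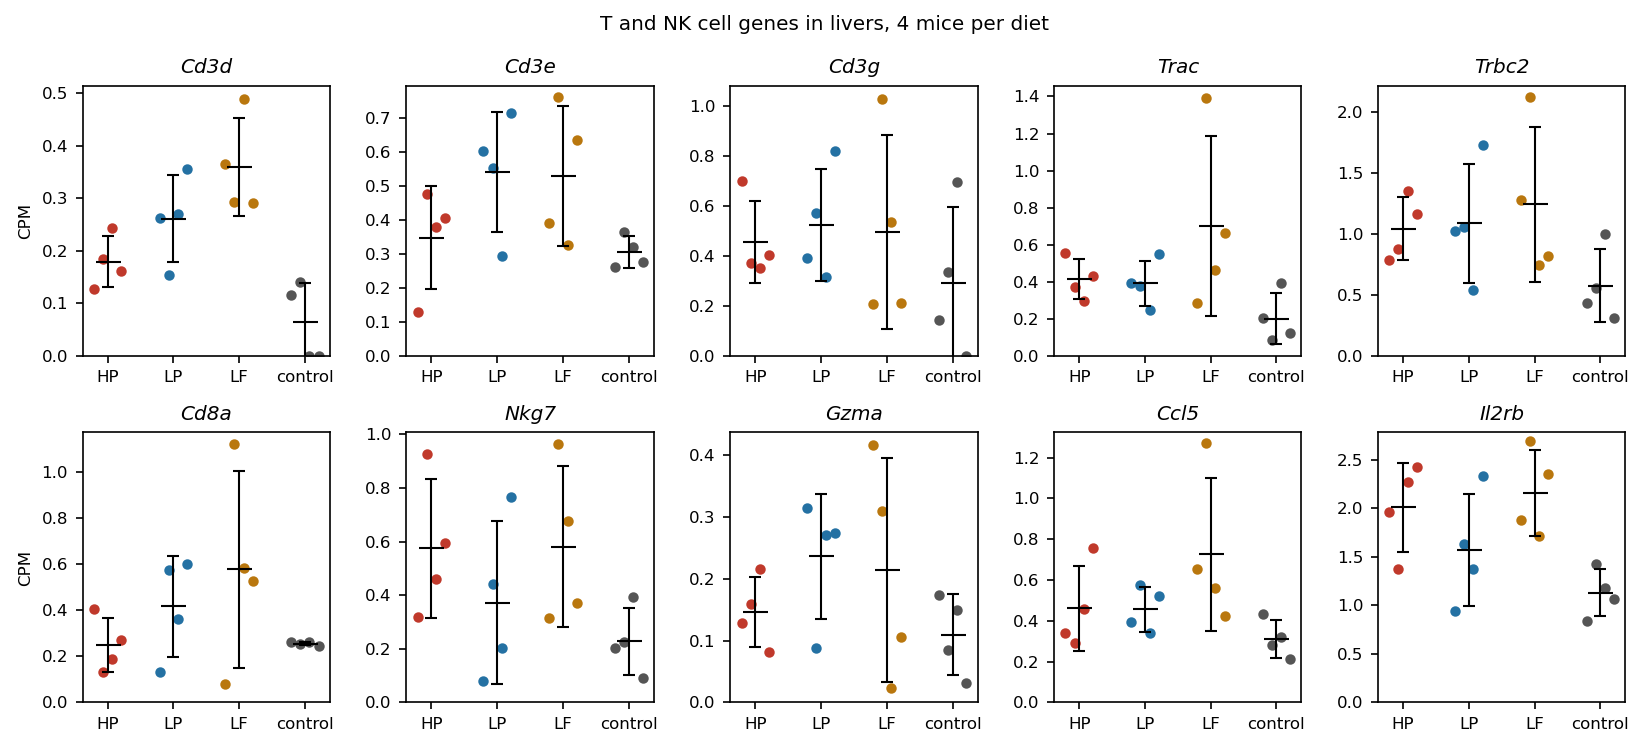
Level of each of the 10 genes in CPM (vertical axis, a scale per panel) in every library of the high-protein (HP), low-protein (LP), low-fat (LF) and control diets, points left to right being replicates 1 to 4, with mean and SD in black. The low-fat point of replicate 2 is the highest of its gene in 8 panels, and 2 controls lie at 0 for Cd3d.

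Cd3d, Cd3e and Cd3g encode the delta, epsilon and gamma chains of CD3. Cd3d had 0.128, 0.185, 0.244 and 0.162 CPM in the high-protein livers, 0.262, 0.154, 0.271 and 0.356 CPM in the low-protein livers and 0.365, 0.293, 0.489 and 0.291 CPM in the low-fat livers, against 0.116, 0.14, 0 and 0 CPM in controls. These values rest on 6 to 9 counts in high-protein livers, 7 to 13 in low-protein livers, 11 to 35 in low-fat livers and 0 to 5 in controls, and a count of 0 allows up to 0.0564 CPM in control 3 and 0.0921 CPM in control 4. All low-protein and low-fat livers lay above every control, and of the high-protein livers only replicate 1 lay below a control, control 2. Fitted log2 fold changes were 1.51 (SE 0.74) with high protein, 2.04 (SE 0.72) with low protein and 2.50 (SE 0.71) with low fat over control. As Cd3d passed the low-count filter only through low-protein and low-fat livers, these values are given as a description. Their edgeR p-values were 0.0577, 0.0123 and 0.00293 before adjustment and 0.762, 0.681 and 0.53 after adjustment over all genes. The size rests on controls 3 and 4, which held no Cd3d count: without both, an alternative chosen after seeing the data, the 3 log2 fold changes were 0.47, 1.00 and 1.46.

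Cd3e had 0.128, 0.476, 0.379 and 0.405 CPM with high protein, 0.602, 0.551, 0.294 and 0.712 CPM with low protein and 0.391, 0.761, 0.326 and 0.635 CPM with low fat, against 0.261, 0.364, 0.32 and 0.276 CPM in controls. In each altered diet 3 of 4 livers lay above the highest control and the fourth lay within or below the controls. Log2 fold changes over control were 0.17 (SE 0.43), 0.81 (SE 0.42) and 0.80 (SE 0.42) for high protein, low protein and low fat, with edgeR p of 0.7, 0.0736 and 0.0749 before adjustment. The high-protein value was -0.06 under voom. An annotated antisense gene, Gm48719, shares 135 exon bases with Cd3e, and the strand setting of the authors' counting is not given, so the Cd3e counts may include its reads.

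Cd3g had 0.701, 0.371, 0.352 and 0.405 CPM with high protein, 0.392, 0.573, 0.316 and 0.822 CPM with low protein and 0.209, 1.03, 0.535 and 0.212 CPM with low fat, against 0.145, 0.336, 0.696 and 0 CPM in controls. A single liver of each altered diet lay above control 3, and all groups overlapped. Log2 fold changes over control were 0.58 (SE 0.74), 0.77 (SE 0.74) and 0.74 (SE 0.73), each about the size of its standard error. The low-fat value was 0.05 without low-fat replicate 2, 1.65 without control 3 and 0.33 without control 4. Cd3d and Cd3g, whose starts face away from each other, had a Spearman correlation of 0.17 over the 16 libraries.

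Trac and Trbc2 encode constant regions of the alpha and beta chains of the T cell receptor. Trac (chromosome 14, 54220521 to 54224206) had 0.553, 0.371, 0.298 and 0.432 CPM with high protein, 0.392, 0.375, 0.249 and 0.548 CPM with low protein and 0.287, 1.39, 0.466 and 0.661 CPM with low fat, against 0.203, 0.0841, 0.395 and 0.123 CPM in controls. Every liver of the altered diets lay above the control mean of 0.201 CPM, but control 3 overlapped with each diet. The log2 fold change was 0.99 (SE 0.53) with high protein, 0.90 (SE 0.53) with low protein and 1.77 (SE 0.52) with low fat, and the low-fat value had an edgeR p of 0.004 before and 0.53 after adjustment. Without low-fat replicate 2 it was 1.17. Without control 3 it was 2.39 with an adjusted p of 0.06, the lowest that any of the 10 genes reached against control under any alternative.

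Trbc2 (chromosome 6, 41546730 to 41548352), the most abundant per kilobase, had 0.786, 0.873, 1.35 and 1.16 CPM with high protein, 1.02, 1.06, 0.542 and 1.73 CPM with low protein and 1.28, 2.12, 0.745 and 0.82 CPM with low fat, against 0.435, 0.56, 0.996 and 0.307 CPM in controls. Control 3 again overlapped with every diet, and low-protein replicate 3 also lay below control 2. Log2 fold changes were 0.83 (SE 0.44), 0.89 (SE 0.44) and 1.10 (SE 0.44), with edgeR p of 0.0772, 0.0605 and 0.0232 before adjustment. The annotated sequences of Trbc2 (692 bases, its whole exon length) and its neighbour Trbc1 (737 bases) hold an identical run of 259 bases. The authors' counting could thus split or drop shared reads, and the Trbc2 level is uncertain.

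Cd8a (chromosome 6, 71373427 to 71379173) encodes the alpha chain of the coreceptor of cytotoxic T cells, which some dendritic cells also carry. It had 0.404, 0.132, 0.189 and 0.27 CPM with high protein, 0.131, 0.573, 0.362 and 0.603 CPM with low protein and 0.0782, 1.12, 0.582 and 0.529 CPM with low fat, against 0.261, 0.252, 0.263 and 0.246 CPM in controls. The controls spanned only 0.246 to 0.263 CPM on 8 to 14 counts, and each diet had libraries on both sides of them. The log2 fold change was -0.03 (SE 0.63) with high protein, the one fitted value of the 30 against control below 0 (0.01 with upper-quartile factors), and 0.70 (SE 0.61) with low protein and 1.20 (SE 0.60) with low fat. High protein stood 1.23 log2 units below low fat (SE 0.60, edgeR p 0.0577, adjusted p 0.547). The low-fat value over control was 0.64 without low-fat replicate 2.

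Nkg7 and Gzma encode a membrane protein of cytotoxic granules and granzyme A, a serine protease released from them. Nkg7 had 0.319, 0.926, 0.46 and 0.594 CPM with high protein, 0.0785, 0.441, 0.203 and 0.767 CPM with low protein and 0.313, 0.962, 0.675 and 0.37 CPM with low fat, against 0.203, 0.224, 0.395 and 0.0921 CPM in controls. All high-protein and low-fat livers lay above the control mean, while low-protein replicates 1 and 3 lay below it. Log2 fold changes over control were 1.28 (SE 0.62), 0.66 (SE 0.62) and 1.32 (SE 0.61), with edgeR p of 0.0549, 0.308 and 0.0459 before adjustment. The low-protein value was 0.05 without low-protein replicate 4.

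Gzma had 0.128, 0.159, 0.216 and 0.0809 CPM with high protein, 0.314, 0.0881, 0.271 and 0.274 CPM with low protein and 0.417, 0.31, 0.0233 and 0.106 CPM with low fat, against 0.174, 0.0841, 0.15 and 0.0307 CPM in controls. The low-fat livers held both the highest and the lowest Gzma level of the series, on 1 to 37 counts, and no control or high-protein liver reached the level of the filter. Log2 fold changes were 0.37 (SE 0.72), 1.05 (SE 0.70) and 0.94 (SE 0.69), with edgeR p of 0.616, 0.151 and 0.19 before adjustment.

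Ccl5 (chromosome 11, 83525778 to 83530518) encodes a chemokine made by activated T and NK cells that attracts lymphocytes and monocytes. It had 0.34, 0.291, 0.46 and 0.755 CPM with high protein, 0.392, 0.573, 0.339 and 0.521 CPM with low protein and 0.652, 1.27, 0.559 and 0.423 CPM with low fat, against 0.435, 0.28, 0.32 and 0.215 CPM in controls. Low-fat replicates 1 to 3 lay above every control and replicate 4 lay just under control 1. Log2 fold changes were 0.55 (SE 0.42), 0.54 (SE 0.42) and 1.23 (SE 0.41), and only the low-fat value had an edgeR p below 0.05 before adjustment (0.00869, adjusted 0.53).

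Il2rb (chromosome 15, 78479256 to 78495271) encodes the beta chain shared by the receptors of interleukin 2 and interleukin 15 and marks NK and memory T cells. It was the best counted of the 10 genes, with 29 to 322 counts per library. It had 1.96, 1.38, 2.27 and 2.43 CPM with high protein, 0.942, 1.63, 1.38 and 2.33 CPM with low protein and 1.88, 2.69, 1.72 and 2.35 CPM with low fat, against 0.842, 1.43, 1.18 and 1.07 CPM in controls. All low-fat livers lay above every control, and of the high-protein livers only replicate 2 did not. Log2 fold changes were 0.82 (SE 0.29), 0.47 (SE 0.29) and 0.93 (SE 0.29), with edgeR p of 0.0121, 0.127 and 0.00546 before adjustment and 0.762, 0.697 and 0.53 after it.

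**Figure D2:**
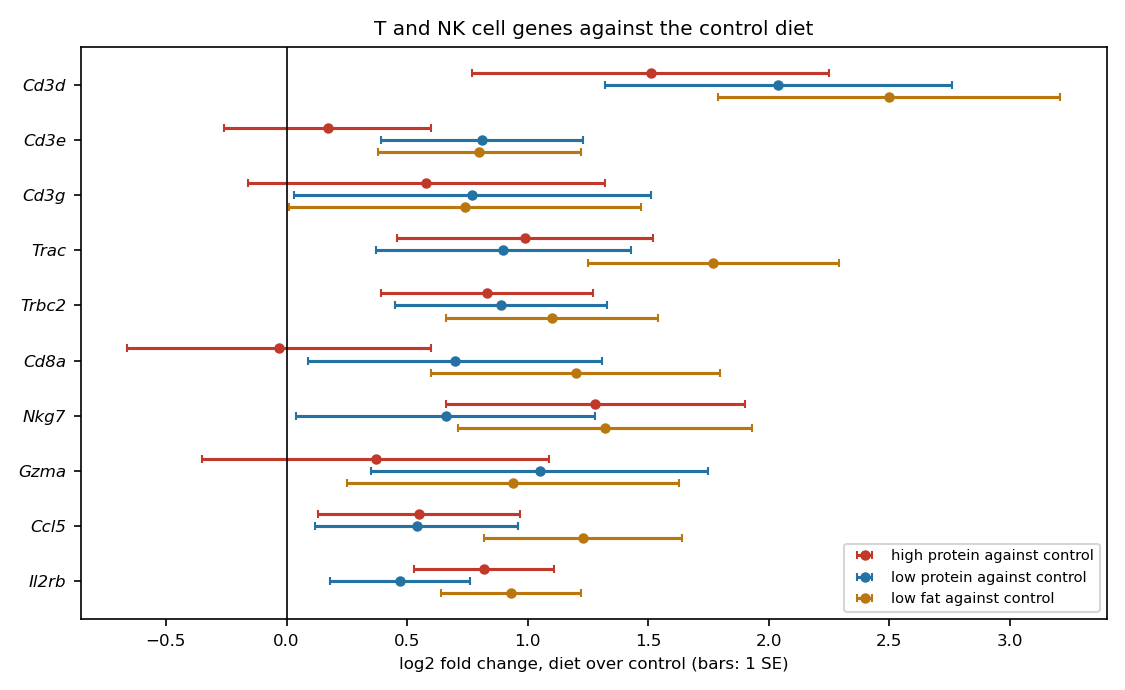
Fitted log2 fold change (horizontal axis, diet over control) of each gene with high protein, low protein and low fat, top to bottom within a gene; bars are 1 SE. Of 30 values 29 lie right of 0 (Cd8a with high protein is at -0.03, and at 0.01 with upper-quartile factors), Cd3d lies farthest, and the 3 diets share the same 4 controls.

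Read together, 9 of 10 genes had a fold change above 0 with high protein, 10 of 10 with low protein and 10 of 10 with low fat, while 41.7%, 45.6% and 47.6% of all 17833 genes did. Over the other settings that tested all 10 genes, the number was 8 to 10 with high protein. Without Cd3d and Gzma, which had no control at the filter level, it was 7, 8 and 8 of 8, with medians of 0.70, 0.74 and 1.15. The median log2 fold change of the 10 genes was 0.70, 0.79 and 1.15 for high protein, low protein and low fat, against -0.06, -0.03 and -0.02 over all genes tested. The 3 comparisons use the same 4 control livers, so they do not repeat one another. The 10 genes were chosen with earlier results of these data known and tended to be high in the same livers. Their counts beside the shares over all genes are thus a description. With the mean of the 3 altered diets against control, 10 of 10 genes were above 0 (44.6% of all genes), with a median of 0.78 against -0.04 over all genes.

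At an unadjusted p below 0.05 in edgeR, 1 gene was higher with high protein (Il2rb), 1 with low protein (Cd3d) and 6 with low fat (Cd3d, Trac, Trbc2, Il2rb, Nkg7 and Ccl5), where 2.48%, 2.35% and 3.09% of all genes were. In the mean of the 3 diets 5 were (Cd3d, Trac, Trbc2, Il2rb and Ccl5), against 2.40% of all genes. In the joint test of the 4 diets 3 reached it (Cd3d, Trac and Il2rb), against 6.59% of all genes. Cd3d passed the low-count filter only through low-protein and low-fat livers, and without it Trac and Il2rb remain in the joint test. Without Cd3d and Gzma the counts were 1, 0 and 5 of 8 in the 3 diets and 4 of 8 in their mean. The smallest adjusted p among the 10 was 0.762, 0.681 and 0.53 in the 3 diets and 0.457 in their mean.

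Groups that did not overlap were few. No gene had all 4 high-protein livers above all controls (1.12% of all genes did), 1 had with low protein, Cd3d (1.61% of all genes), and 2 had with low fat, Cd3d and Il2rb (1.27% of all genes). Cd3d passed the low-count filter only through low-protein and low-fat livers, so its separation there is a description. Without Cd3d, only Il2rb with low fat remains. No gene had all 12 livers of the altered diets above all controls (0.0449% of all genes). The counts at an unadjusted p below 0.05 depend on few libraries and on the method. They are given without the share over all genes in the same run, which moved too. Without control 2, for example, 2560 of all genes reached it in the mean of the diets in edgeR, against 1756 with all libraries. For high protein, DESeq2 gave 3, the kidney covariate 2 and the compared groups alone 2 of 7 tested. For low protein the compared groups alone gave 0 of 7 tested, and for the mean of the diets voom gave 3. The low-fat count was 3 without low-fat replicate 2, 4 each without control 1 or control 4, and 7 without low-fat replicate 1. The high-protein count was 4 without control 3 and 2 each without high-protein replicate 1, control 1, control 2 or controls 3 and 4 together. The low-protein count was 3 each without control 3 or low-protein replicate 3, and 2 without low-protein replicate 1. In the mean of the diets it was 2 each without control 2 or control 4, and 3 without controls 3 and 4 together. It rose there to 7 without high-protein replicate 1, and to 6 each without low-protein replicate 1, low-protein replicate 3 or control 3.

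The altered diets were also compared with one another. High protein was higher than low protein for 4 of 10 (47.5% of all genes), with a median log2 difference of -0.12, and 0 of 10 had an unadjusted p below 0.05, against 5.17% of all genes. High protein was higher than low fat for 0 of 10 (47.0% of all genes), with a median of -0.60, and 0 of 10 had an unadjusted p below 0.05, against 9.08% of all genes. The smallest p in edgeR was 0.0577 (Cd8a, adjusted 0.547). Cd3d was the only 1 of the 10 without overlap there, 0.128 to 0.244 CPM with high protein against 0.291 to 0.489 CPM with low fat, and 3.99% of all genes were separated in this direction. As Cd3d passed the low-count filter with 0 high-protein libraries at its level, this separation too is a description. Low fat was higher than low protein for 7 of 10 (50.4% of all genes), with a median of 0.46 and 0 of 10 at an unadjusted p below 0.05, against 2.38% of all genes. Under voom it was 10 of 10, with 3 at an unadjusted p below 0.05, a count given without its share over all genes. Without low-fat replicate 2, high protein was higher than low fat for 4 of 10 with a median of -0.21, and low fat was higher than low protein for 5 of 10 with a median of 0.10.

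The summed level of the 10 genes puts the libraries side by side. It was 5.44, 5.16, 6.22 and 6.69 CPM with high protein, 4.53, 6.02, 4.23 and 8.66 CPM with low protein and 5.87, 12.0, 6.12 and 6.40 CPM with low fat, against 3.08, 3.75, 4.72 and 2.36 CPM in controls. Every high-protein and low-fat liver lay above every control, and low-protein replicates 1 and 3 lay below control 3. With unscaled library totals control 3 had 5.45 CPM, above high-protein replicate 2 at 5.23 CPM, and without Il2rb control 3 had 3.53 CPM, above high-protein replicate 1 at 3.49 CPM, while the low-fat livers lay above every control in both. The means were 5.88 ± 0.704, 5.86 ± 2.03 and 7.59 ± 2.92 CPM with high protein, low protein and low fat and 3.48 ± 1.0 CPM in controls (SD, n = 4 each). A sum over genes chosen with results known is given without a test, and Il2rb is its largest term.

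A few libraries stood high or low for most of the genes. Low-fat replicate 2 and low-protein replicate 4 lay above every control for 10 of 10 genes each, the other low-fat livers for 5 or 6, the other low-protein livers for 3 to 7 and the high-protein livers for 3 to 8. Low-fat replicate 2 was the highest library for 8 genes, all but Cd3d and Gzma. Among controls, control 3 lay above the control mean for 9 genes, all but Cd3d, and control 4 for none.

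**Figure D3:**
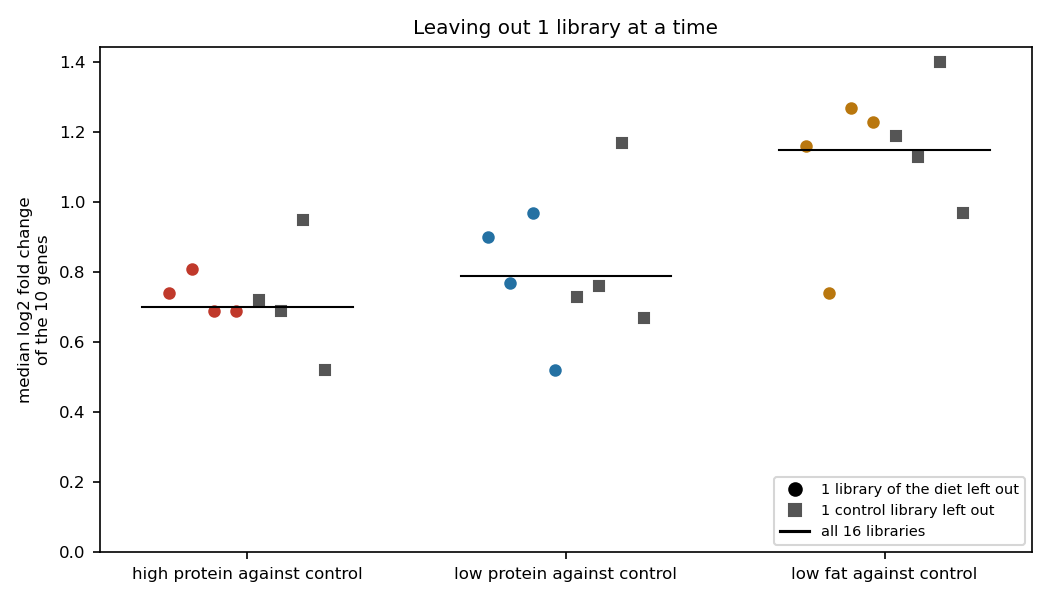
Median log2 fold change of the 10 genes over control (vertical axis) when each library of the diet (circles) or of the control (squares) is left out in turn, beside the value with all 16 libraries (line). The value stays above 0 in each case, between 0.52 and 1.40, and moves most without control 3, control 4, low-protein replicate 4 and low-fat replicate 2.

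Leaving out 1 library at a time gave a median of 0.52 to 0.95 in high-protein livers, 0.52 to 1.17 in low-protein livers and 0.74 to 1.40 in low-fat livers. The lowest low-fat median was the one without low-fat replicate 2, and the lowest low-protein median, 0.52 against 0.79 with all libraries, the one without low-protein replicate 4. The highest of each diet was the one without control 3.

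Over the 16 libraries, the 10 genes tended to be high in the same livers. Of 45 pairs, 43 had a Spearman correlation above 0, with a median of 0.50 and a range of -0.23 to 0.74. Cd3e and Trbc2 (0.74) and Cd3g and Trac (0.73) were the most alike. Gzma stood apart, with a median of 0.08 over its 9 pairs, -0.04 with Nkg7 and -0.23 with Cd8a. It also had the fewest counts of the 10 genes, a median of 6 per library, and the part of counting error in these correlations was not tested. These are descriptions over libraries that share depth, controls and scaling factors.

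**Figure D4:**
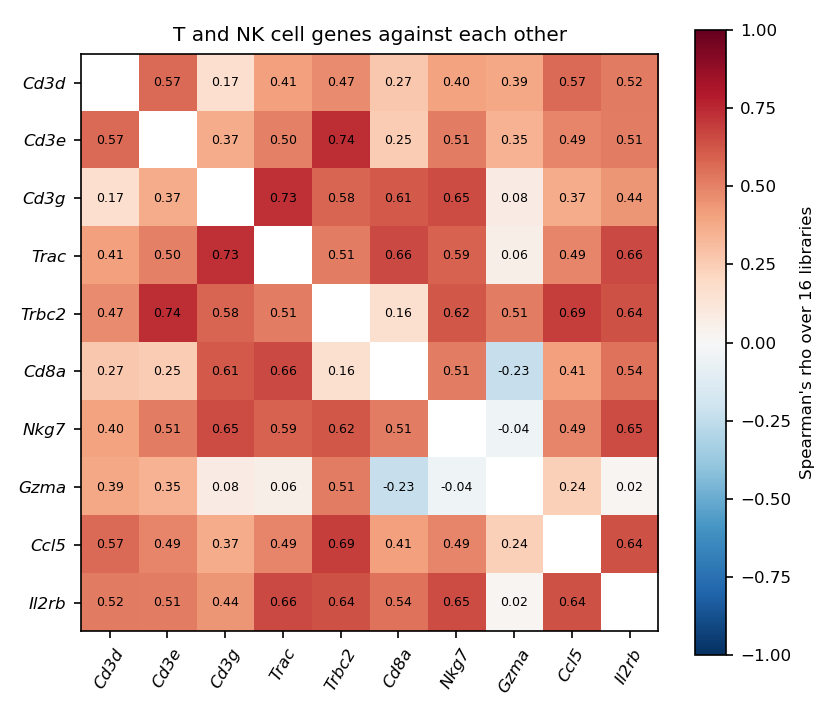
Spearman correlation of each pair of the 10 genes over the 16 libraries (colour and printed value). The column of Gzma is the palest, at -0.23 to 0.51, and the largest value is 0.74 for Cd3e with Trbc2.

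The genes most like the summed level over the 16 libraries, among the 17833 tested, were Podnl1 (Spearman correlation 0.92), Pirb (0.91), Gimap3 (0.91), Spi1 (0.87), Capg (0.87), Cd300a (0.86), Axl (0.86) and Pik3cd (0.86), against a median of 0.01 over all genes tested. Gimap3 is a GTPase of lymphocytes, Pirb and Cd300a are inhibitory receptors of myeloid cells, Spi1 is a transcription factor of myeloid and B cells, and Pik3cd is the leukocyte form of the catalytic subunit of phosphoinositide 3-kinase. Podnl1, Capg and Axl are not described here. Without low-fat replicate 2 and control 4, the correlations of these 8 genes were 0.78 to 0.93. Among the marker lists taken up below, the median correlation with the summed level was 0.59 for Kupffer cell genes and 0.53 each for dendritic cell and pan-leukocyte genes. It was 0.50 for cytotoxic and NK receptor genes, 0.36 for T cell receptor signalling genes and 0.25 for B and plasma cell genes. The likeness was thus not particular to lymphocyte genes.

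Other genes of T cell receptor signalling went in both directions. Of a list of 30, 20 were counted well enough to test. Of these 20, 12, 11 and 14 had a fold change above 0 with high protein, low protein and low fat. Of all genes tested 41.7%, 45.6% and 47.6% did. The others of the list did not pass the filter on low counts, so these 20 do not stand for it. Their median log2 fold changes were 0.03, 0.18 and 0.31, and none passed the adjusted threshold in either direction. Zap70, the kinase that docks on CD3, averaged 13.2 ± 2.54, 8.85 ± 1.05 and 7.58 ± 1.68 CPM in the 3 diets and 9.06 ± 3.81 CPM in controls. Tcf7, a transcription factor of T cells, ran from 3.03 to 3.91, 3.21 to 4.39 and 3.05 to 3.52 CPM in the diets, against 3.08 to 4.12 CPM in controls. Thy1, a T cell surface protein that other cells carry too, averaged 3.09 ± 0.411, 2.15 ± 0.726 and 2.92 ± 0.636 CPM against 1.68 ± 0.813 CPM in controls (SD, n = 4 each, as for Zap70).

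Cd28, the costimulatory receptor of T cells, went the other way. It had 0.0638, 0.212, 0.108 and 0.135 CPM with high protein, 0.183, 0.198, 0.294 and 0.192 CPM with low protein and 0.261, 0.142, 0.186 and 0.159 CPM with low fat, against 0.145, 0.28, 0.62 and 1.32 CPM in controls. Controls 3 and 4 lay above every other library, and controls 1 and 2 lay among the diets. The log2 fold change of the mean of the diets was -1.76 (SE 0.42, edgeR p 0.000836, adjusted p 0.391). Cd28 reached the level of the low-count filter in 3 control, 1 low-protein, 1 low-fat and 0 high-protein libraries. It could thus be tested only through the controls, where it was high, and its fitted value is given as a description. Control 4, the highest library for Cd28, was the lowest in the summed level of the 10 genes.

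Other genes of cytotoxic lymphocytes and NK receptors were too rare for most of the list. Of 30, 12 could be tested, and 9, 10 and 11 of them were above 0 with high protein, low protein and low fat, with medians of 0.59, 0.66 and 0.94. As 18 did not pass the filter on low counts, these 12 do not stand for the list, and none passed the adjusted threshold. Gzmb, granzyme B, had 0.298, 0.0794, 0.298 and 0.0809 CPM with high protein, 0.0785, 0.0441, 0.0452 and 0.301 CPM with low protein and 0.156, 1.07, 0.163 and 0.185 CPM with low fat, against 0, 0.0841, 0.0188 and 0 CPM in controls. All low-fat livers lay above every control, and the controls rested on 0 to 3 counts. Of its 201 counts 128 came from low-fat replicate 2. Gzmb passed the low-count filter with 0 controls at its level, so its fitted log2 fold change of the mean of the diets, 2.89 (SE 0.98, edgeR p 0.00968, adjusted p 0.457), describes a gene that could be tested only through the altered diets.

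Prf1, the pore-forming perforin, had 0.0425, 0.132, 0.162 and 0.378 CPM with high protein, 0.314, 0.0881, 0.249 and 0.521 CPM with low protein and 0.261, 0.385, 0.303 and 0.185 CPM with low fat, against 0.0871, 0.224, 0.0564 and 0.0307 CPM in controls. Control 2 overlapped with each diet, and Prf1 too passed the filter with 0 controls at its level. The NK receptor gene Klrd1 averaged 0.275 ± 0.0906, 0.377 ± 0.105 and 0.365 ± 0.0858 CPM with the 3 diets against 0.294 ± 0.215 CPM in controls. Ctsw, a protease of cytotoxic lymphocytes, averaged 0.607 ± 0.422, 0.548 ± 0.292 and 0.849 ± 0.327 CPM against 0.344 ± 0.121 CPM in controls (SD, n = 4 each).

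Of 13 other genes of the interleukin 2 and interleukin 15 system (ligands, partner receptor chains, kinases, STAT factors and targets), 12 were tested, and 4, 9 and 10 were above 0 in the 3 diets, with medians of -0.16, 0.23 and 0.26. Cish, an inhibitor induced by cytokine receptors, had 65.2, 50.8, 5.06 and 11.8 CPM with high protein, 4.29, 13.0, 11.0 and 3.62 CPM with low protein and 8.99, 11.1, 39.4 and 40.7 CPM with low fat, against 60.2, 59.7, 38.0 and 34.1 CPM in controls. All low-protein livers lay below every control, and hepatocytes also express this gene under growth hormone. Jak3, the kinase bound to the common gamma chain, averaged 15.7 ± 1.61, 16.3 ± 2.52 and 16.4 ± 1.35 CPM against 13.2 ± 2.63 CPM in controls. Jak1, which serves many cytokine receptors, averaged 109 ± 9.8, 108 ± 6.07 and 114 ± 7.62 CPM against 110 ± 8.1 CPM in controls (SD, n = 4 each).

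Of 20 genes of the chemokine system of T cells, Ccl5 itself left out, 17 were tested, and 14, 15 and 16 were above 0 in the 3 diets, with medians of 0.17, 0.44 and 0.73. Cxcl16, a chemokine that holds T and NKT cells in the sinusoids, averaged 7.54 ± 0.842, 6.97 ± 0.596 and 9.53 ± 1.33 CPM against 6.10 ± 1.69 CPM in controls. Ccr7, the receptor of naive T cells and mature dendritic cells, averaged 0.259 ± 0.19, 0.577 ± 0.0793 and 0.491 ± 0.32 CPM against 0.199 ± 0.109 CPM in controls (SD, n = 4 each). MHC class I molecules are ligands of CD8 and of NK receptors. Of 12 genes that encode them or serve presentation by them, 9, 8 and 10 were above 0 with medians of 0.13, 0.12 and 0.14. B2m, the light chain of MHC class I, averaged 753 ± 75.1, 809 ± 47.8 and 816 ± 91.5 CPM against 674 ± 171 CPM in controls. No gene of these 3 lists passed the adjusted threshold.

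Genes shared by all leukocytes had fold changes above 0 beside the 10 genes. Of 10 pan-leukocyte genes, 10, 10 and 10 were above 0 with high protein, low protein and low fat, with medians of 0.26, 0.49 and 0.53, and none passed the adjusted threshold. At an unadjusted p below 0.05 in edgeR, 2, 4 and 8 of 10 were higher in the 3 diets and 6 of 10 in their mean. Of all genes 2.48%, 2.35%, 3.09% and 2.40% were. Of the 10 T and NK cell genes 1, 1, 6 and 5 were, and without Cd3d and Gzma 1, 0, 5 and 4 of 8. Ptprc, which encodes the leukocyte antigen CD45, had 7.01, 8.05, 8.96 and 7.10 CPM with high protein, 9.71, 6.57, 6.94 and 9.84 CPM with low protein and 8.66, 11.4, 8.64 and 7.46 CPM with low fat, against 5.55, 5.30, 6.71 and 3.99 CPM in controls. Only low-protein replicate 2 overlapped the controls, at control 3. The log2 fold change of the mean of the diets was 0.63 (SE 0.17, edgeR p 0.00168, adjusted p 0.419).

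The level of the 10 genes relative to these leukocyte genes is given without a test. The log2 ratio of their summed level to that of the 10 pan-leukocyte genes averaged -3.43 ± 0.09, -3.52 ± 0.33 and -3.25 ± 0.30 with high protein, low protein and low fat, and -3.84 ± 0.24 in controls (SD, n = 4 each). High-protein livers, at -3.51 to -3.30, and low-fat livers, at -3.54 to -2.84, lay above the controls, at -4.20 to -3.68, while low-protein livers overlapped them. Against Ptprc alone the ratio averaged -0.40 ± 0.24, -0.53 ± 0.46 and -0.30 ± 0.29 in the diets and -0.65 ± 0.18 in controls, and every diet overlapped the controls.

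**Figure D5:**
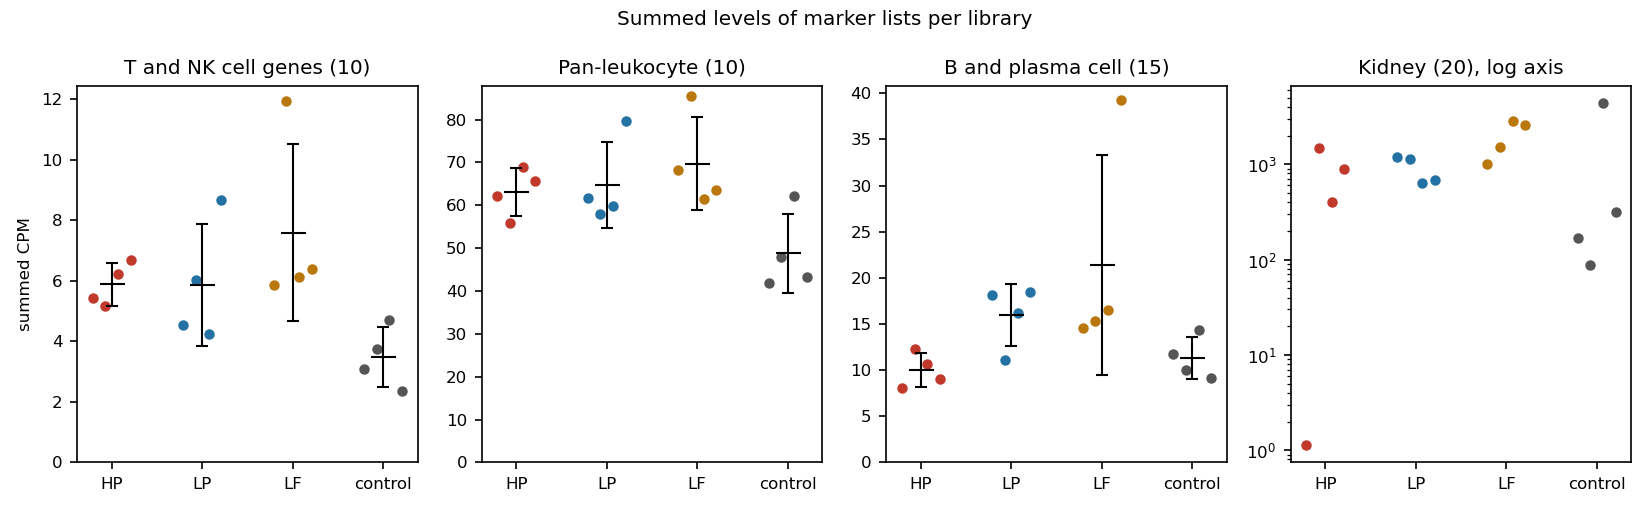
Summed CPM (vertical axes, the last one logarithmic) of the 10 T and NK cell genes, 10 pan-leukocyte genes, 15 B and plasma cell genes and 20 kidney genes in each library by diet, with mean and SD in black in the first 3 panels. The 10 genes and the pan-leukocyte genes are lowest in controls apart from control 3, the B cell genes are not higher with high protein, and kidney genes span 1.13 to 4380 CPM.

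Markers of other cells in the liver pieces give the setting of these levels. B and plasma cell genes were above 0 for 8, 14 and 13 of 15 in the 3 diets, Kupffer cell genes for 12, 10 and 11 of 13, dendritic cell genes for 11, 12 and 10 of 12, and monocyte and neutrophil genes for 7, 6 and 7 of 11 tested. Stellate and fibroblast genes were above 0 for 4, 9 and 8 of 11, endothelial genes for 5, 2 and 5 of 11, cholangiocyte genes for 1, 2 and 9 of 9, and hepatocyte genes for 4, 4 and 4 of 12. Of 7 erythroid genes 5, 6 and 6 were above 0, of 4 platelet genes 0, 1 and 0, and of 4 tested genes of lymph node stroma 2, 3 and 4. No gene of these lists passed the adjusted threshold, and the part of these cells in the result was not tested.

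Kidney genes, which liver does not make at such levels, were found in most libraries. Their summed level over 20 genes was 1.13 to 1490 CPM in high-protein livers, 630 to 1190 CPM in low-protein livers and 994 to 2840 CPM in low-fat livers, against 86.8 to 4380 CPM in controls, and none of the 20 was at 0 in all libraries. They were above 0 for 0, 0 and 19 of 20 in the 3 diets. Controls 1, 2 and 4 had 169, 86.8 and 315 CPM, less than every liver of the altered diets except high-protein replicate 1 at 1.13 CPM, and control 3 had the most of all libraries. The Spearman correlation of the kidney level with the summed level of the 10 genes was 0.41 over the 16 libraries, and 0.09 for deviations from the mean of each diet. With the log2 kidney level as a covariate, the median log2 fold change of the 10 genes was 0.70, 0.77 and 1.04 in the 3 diets, against 0.70, 0.79 and 1.15 without it. The part of kidney RNA in the result beyond this covariate was not tested. The 7 lymph node stroma genes in the table, which would mark a hepatic node in the piece, summed to 1.30 to 3.82, 1.87 to 3.37 and 1.77 to 4.42 CPM in the diets and 1.40 to 2.46 CPM in controls.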

How the data were processed

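RNA from liver of 16 mice, 4 per diet, was sequenced from directional libraries, and groups come from the labels. What the authors deposited is a table of raw, whole-number counts, with genes as rows and 1 column for each library. The submitters' processing notes name GRCm38.p6, STAR 2.7.0f, Trimmomatic 0.39, Subread 1.6.4, featureCounts and edgeR 3.32.1, and the strand setting is not given in the sources used here. Symbols came from GENCODE M21 by gene ID without version (54723 of 54752 matched).

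Here edgeR 4.0.16 (R 4.3.3) was run on the deposited counts of the 17833 genes that passed filterByExpr, with TMM factors and the quasi-likelihood test on 4 group means (12 residual degrees of freedom), two-sided, with Benjamini-Hochberg adjustment over all genes at 0.05. CPM values use TMM-scaled library totals. Log2 fold changes have an approximate standard error (SE), worked out as the absolute log2 fold change over the square root of the test's F value. The fitting steps were tested on simulated counts. Other settings tried were upper-quartile and RLE factors, other filters, DESeq2 1.42.0, limma 3.58.1 (voom), a replicate block, a kidney covariate, the compared groups alone, and leaving out libraries.

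The 10 genes and the other lists were chosen with earlier results of these data known. All 10 are named. From each other list the named genes follow a rule (smallest p in the mean of the 3 diets, highest level per kb), and not every gene it names is described. Replicates differed by more than sampling noise (chi-square per degree of freedom 44.8 or more). The labels do not say which animals shared a litter or cage, so a p-value reflects only the variation among these livers. At counts this low, counting error is part of every value: with 3 counts taken as the floor, a library detects 0.0251 to 0.0921 CPM.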

Additional observations from a re-analysis of the deposited data

Results flagged for a closer look

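In 44 groups of 4 libraries (each of the 10 genes and their sum in each diet), the highest or lowest library was compared with the others by the ratio of its gap to the range, against Dixon's critical value. Chance passes about 1 group in 20, so the 2 that passed are about as many as chance gives. The summed level in low-fat replicate 2 was 12.0 CPM, against 5.87 to 6.40 CPM in the other 3 low-fat livers (ratio 0.912). It is also the deepest library. The Cd3g level in high-protein replicate 1 was 0.701 CPM, against 0.352 to 0.405 CPM in the other 3 high-protein livers (ratio 0.849).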

How the results depend on the processing

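None of the 10 T and NK cell genes passed the adjusted threshold under any alternative run. Numbers of genes of the whole table past it moved from 0. Against control, DESeq2 called 1 gene in high-protein, 10 in low-protein and 4 in low-fat livers. It called 25 between the protein diets, 81 between high protein and low fat, 4 in the mean of the diets and 79 in the joint test. For high protein against low fat, voom called 1, the compared groups alone 16, and leaving out controls 3 and 4 together (chosen after seeing the data) 19. No low-count filter gave 2 in the mean of the diets. Leaving out 1 library gave 0 to 109 in low-fat livers over controls (109 without control 3), 0 to 2 between the protein diets, 0 to 1 between high protein and low fat, 0 to 8 in the mean and 0 to 1 in the joint test. The cause was not tested.

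Against control, direction changed for 2 of the 10 genes, both with high protein. Cd3e was 0.17, and -0.06 under voom and -0.03 to 0.45 when 1 library was left out. Cd8a was -0.03, and 0.01 with upper-quartile factors, 0.06 with the replicate block and -0.37 to 0.18 when 1 library was left out. The number of the 10 genes above 0 was 8 to 10 with high protein and 10 throughout with low protein and low fat. The filter of over 1 CPM in 4 libraries left 2 of the 10 genes and the compared groups alone left 7 or 9 against control, so those numbers have no counterpart.

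Replicate numbers did not pair the livers: correlations of same-numbered libraries were -0.201 to 0.301 over 24 pairs. With them as a block, 0 genes passed in all 8 comparisons. Depth limits every value, as a median library held 6 to 73 counts of each gene. The spread within a diet was set against the counting error at the mean count of the 16 libraries, for example 26.2% against 11.1% for Il2rb. That mean is raised by the deep low-fat replicate 2, so it understates the counting error of the other libraries. For Cd3d, with a median of 8 counts, 35.4% against 31.6% does not show a spread wider than counting gives.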
